A study of Homo sapiens with 10 samples.

Results

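The genes described here code for the subunits of the SWI/SNF chromatin remodelling complexes other than their ATPases, and for the main enzymes of the other remodeller families. They were chosen by name and not by a measured value, though with earlier results of these data known. They are 46 genes of the 63152 gene identifiers in the expression tables. Of these, 26 are SWI/SNF subunits and 20 belong to the ISWI, CHD and INO80 families or to other SNF2-type enzymes. BRG1 (gene SMARCA4) and BRM (gene SMARCA2) are not among them, because these ATPases were themselves introduced into the cells.

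Chromatin remodellers use ATP to slide, evict or exchange nucleosomes. A SWI/SNF complex holds a single ATPase, either BRG1 or BRM, on a core of shared subunits. Defining subunits then set the kind of complex: ARID1A or ARID1B and a DPF protein in canonical BAF (cBAF), ARID2, PBRM1, BRD7 and PHF10 in PBAF, and BRD9 with BICRA or BICRAL in the non-canonical form (ncBAF). The subunits grouped below as shared core are not all in every kind of complex: the study names only SMARCC1 as the core of ncBAF. Several subunits come from small paralogue families of which a complex takes one member, so the mRNA level of each paralogue bears on which complexes a cell can build.

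C33A is a human cervical carcinoma cell line that the study describes as deficient in BRG1 and BRM. In the control libraries SMARCA2 mRNA was near 0, while SMARCA4 mRNA was present. These data do not give protein levels. All cells were transiently transfected and taken 48 h later. The control group received the vector pOPRSVI. BRG1-wt received pBJ5-BRG1 and BRG1-mut received pBJ5-BRG1-K798R, an ATPase-deficient form. BRM-wt received pCG-hBrm and BRM-mut received pCG-hBrm-K798R. Each of the 5 groups had 2 RNA-seq libraries, and the question was how each ATPase, with or without its activity, affected gene expression and exon inclusion. The control vector differs from the ATPase vectors, so plasmid and ATPase cannot be told apart. The labels do not say whether the 2 libraries of a group came from separate cultures, so p-values measure the spread between these libraries only.

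The deposited expression tables give a mean over 4 libraries for each gene, not a value per library. Because each mean is built from whole read counts, the counts of the 10 libraries could be solved for 32114 of 32119 genes with reads, all 46 members among them. The 2 control libraries are those whose counts were identical in all 4 tables, and the other 2 of a table belong to the ATPase group that the table is named for. Which replicate number a library had is not known, so the libraries of a group are called shallower and deeper, by their reads. They held 28938885 to 40698700 reads on genes. Values below are scaled reads, that is reads divided by a size factor for each library (median of ratios). SMARCA4 had 2497 and 4235 reads in control, 46527 and 53164 in BRG1-wt, and 48609 and 65524 in BRG1-mut. SMARCA2 had 13 and 14 reads in control, 43748 and 214220 in BRM-wt, and 101280 and 222526 in BRM-mut. In both cases the transfected gene stood far above control, as the labels say.

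The cells were checked against marker genes. Of 13 markers, 12 were matched. Among epithelial genes, EPCAM had 18 to 43 reads, CDH1 2 to 13 and KRT19 0 to 4, so these defining genes were near 0. The epithelial keratin KRT8 had 77 and 116 reads in control against 706 and 990 in BRG1-wt, 136 and 217 in BRG1-mut, 822 and 368 in BRM-wt and 47 and 131 in BRM-mut, and whether it bears on the results was not tested. Of the leukocyte genes, PTPRC had 934 to 2322 reads while CD3E had 0. COL3A1, a fibroblast collagen, had 3071 to 5808 reads, against 3 to 68 for COL1A1 and 3 to 13 for DCN. The endothelial gene VWF had 0 to 11 reads. In bulk RNA, fewer cells of a kind and less RNA per cell cannot be told apart.

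Nearly all members were expressed. Of the 46, 45 had a mean of at least 10 scaled reads and were tested, and 38 stood above the median gene, which had 137 scaled reads per kb of exon over 16512 tested genes. Levels of different genes are compared per kb of annotated exon throughout, as the median over the 4 tables of the base mean (the mean scaled count that the authors deposited). The members ran from BAZ1B at the top to DPF3 at the bottom. Of 45 neighbouring pairs in this order, 41 had overlapping ranges over libraries, so most neighbours could not be ranked apart. Per kb of the longest transcript in place of all exons, the 10 highest members were the same, with a Spearman rho of 0.94 between the orders over the 46 members, but ACTL6A and CHD4 then led.

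**Figure D1:**
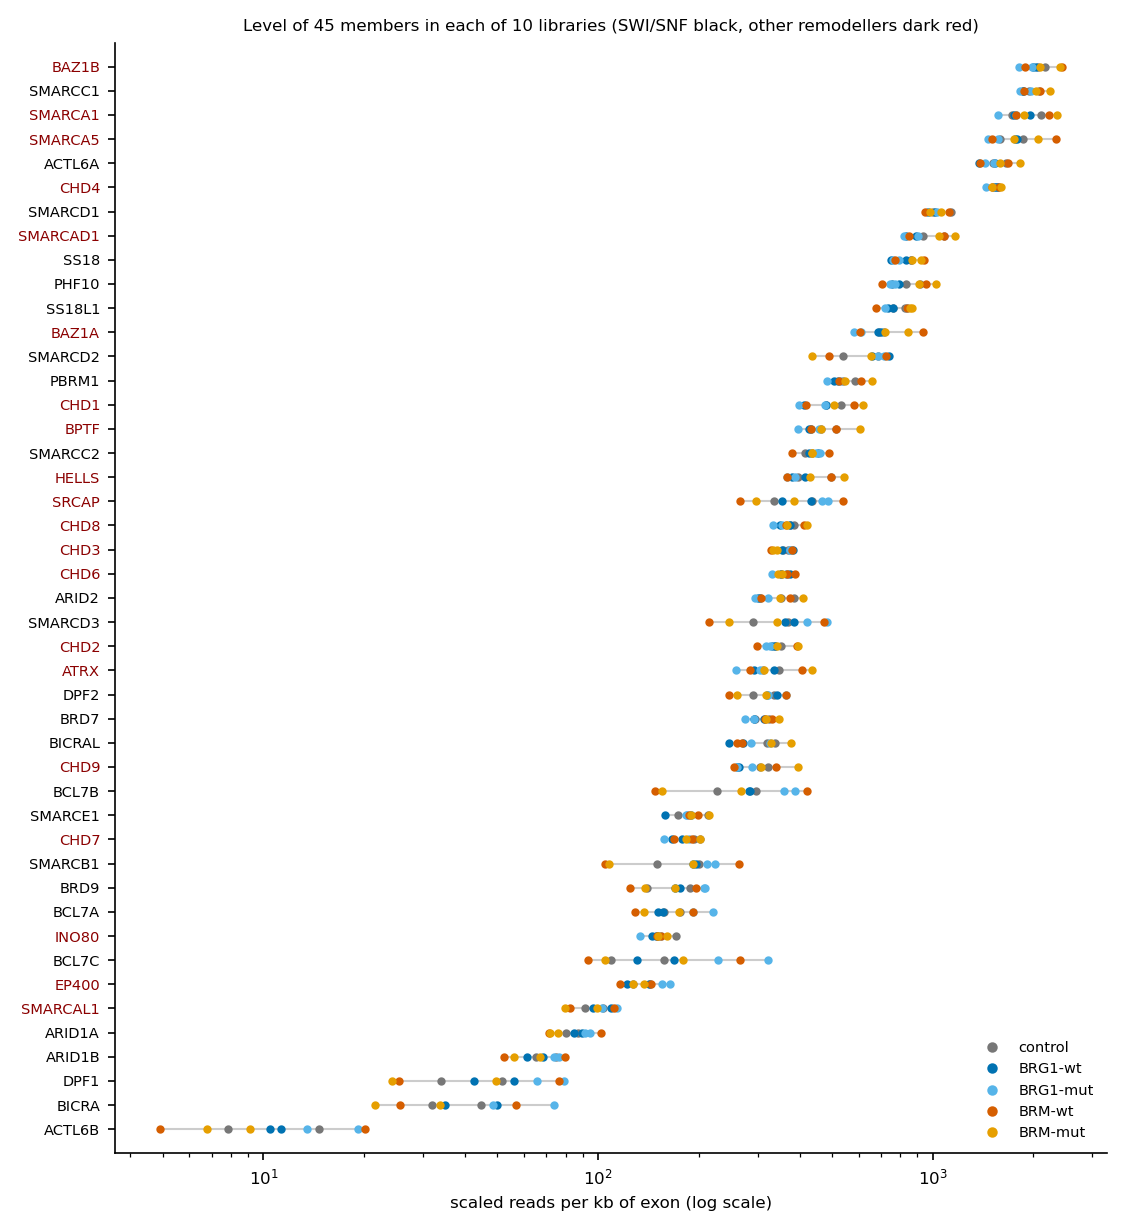
Level of 45 members in scaled reads per kb of exon (log scale) in each of the 10 libraries; points are libraries coloured by group, the grey line is the range, and DPF3, which had 0 to 11 reads, is left out. Most neighbouring ranges overlap, while gaps follow CHD4, EP400 and BICRA.

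Of the SWI/SNF subunits, the highest were SMARCC1, ACTL6A and SMARCD1 of the shared core, whereas other core subunits such as SMARCE1, SMARCB1 and BCL7A stood below the defining subunits PHF10 and PBRM1. SMARCC1, one of the paired scaffold subunits, stood at 1981 (1822 to 2236) scaled reads per kb. Ranges over the 10 libraries are given in brackets. ACTL6A, an actin-related subunit, stood at 1548 (1379 to 1826) and SMARCD1 at 1040.1 (950.3 to 1134). These 3 subunits were at high level in every group. SMARCA4 mRNA stood at 215 scaled reads per kb in control by the mean of its libraries, above the median tested gene, which does not give the level of BRG1 protein.

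SMARCC1 (chr3:47626759-47823596 on the minus strand of GRCh37) had scaled reads of 15873 and 14799.8 in control, 14192 and 14205 in BRG1-wt, 15006 and 13893 in BRG1-mut, 14277 and 15992 in BRM-wt and 17044 and 15528 in BRM-mut. All 10 libraries lay between 13893 and 17044. ACTL6A had scaled reads of 6051 and 5569.6 in control, 5058 and 5648 in BRG1-wt, 5573 and 5261 in BRG1-mut, 5072 and 6144 in BRM-wt and 6697 and 5839.5 in BRM-mut. SMARCD1 had 5559 and 4925 in control, 4738 and 4986 in BRG1-wt, 5059 and 4733 in BRG1-mut, 5490.3 and 4659 in BRM-wt and 5178 and 4803 in BRM-mut. For ACTL6A and SMARCD1 every ATPase group overlapped control, while both BRG1-wt libraries of SMARCC1 lay below both control libraries.

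The lowest SWI/SNF subunits were DPF3, ACTL6B and BICRA. DPF3, a PHD-finger subunit, had 1 and 2 reads in control, 0 and 11 in BRG1-wt, 1 and 1 in BRG1-mut, 0 and 9 in BRM-wt and 4 and 4 in BRM-mut, and was not tested. ACTL6B, the paralogue of ACTL6A known from neurons, had 18 and 36 reads in control, 24 and 30 in BRG1-wt, 29 and 49 in BRG1-mut, 39 and 13 in BRM-wt and 16 and 25 in BRM-mut. Its level was 11.5 (4.90 to 20.2) scaled reads per kb. BICRA, an ncBAF subunit, had scaled reads of 238 and 335 in control, 374 and 262 in BRG1-wt, 364 and 555 in BRG1-mut, 427 and 192 in BRM-wt and 162 and 252 in BRM-mut. Its BRG1-mut libraries both lay above both control libraries, while those of the other groups overlapped control.

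Within paralogue families, most shares stayed in narrow ranges over the 10 libraries. Taken per kb within each library, which does not depend on the size factors, SMARCC1 made up 79.3% to 84.7% of the SMARCC1 and SMARCC2 signal over the 10 libraries. ACTL6A made up 98.6% to 99.7% of the ACTL6 pair, and DPF2 82.2% to 91.4% of the DPF family. ARID1A took 53.1% to 59.3% of the ARID1A and ARID1B signal, and SS18 47.6% to 53.3% of that of SS18 and SS18L1. These shares depend on the length used: per kb of the longest transcript, ARID1A took 33.1% to 38.9%, which turns the order, and SS18 took 59.2% to 64.5%. On that scale SMARCC1 took 71.8% to 78.6%. SMARCD1 took 44.6% to 60.8% of the SMARCD family, with group means of 53.2% in control, 48.0% in BRG1-wt, 46.4% in BRG1-mut, 52.9% in BRM-wt and 55.2% in BRM-mut. BICRAL took 79.4% to 94.6% of the ncBAF pair BICRAL and BICRA.

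The defining subunits were spread over the order. PBRM1, a PBAF subunit with several bromodomains, stood at 553 (484 to 659) scaled reads per kb, PHF10 at 842 (708 to 1022), ARID2 at 347 (294 to 409) and BRD7 at 312 (275 to 348). ARID1A and ARID1B, the DNA-binding subunits of cBAF, stood lower, at 85.6 (71.4 to 102) and 68.1 (52.4 to 79.8). The ncBAF bromodomain subunit BRD9 stood at 166 (124 to 209). These gaps depend on the length used: per kb of the longest transcript ARID1A stood at 159, ARID1B at 289 and BRD9 at 326. PBRM1 had scaled reads of 5639.7 and 5205 in control, 4886 and 5044 in BRG1-wt, 5106 and 4674 in BRG1-mut, 5057 and 5899 in BRM-wt and 6367 and 5284 in BRM-mut. BRD9 had 1340.5 and 1801 in control, 1682 and 1623 in BRG1-wt, 1998 and 1981 in BRG1-mut, 1872 and 1185 in BRM-wt and 1321 and 1618 in BRM-mut. SMARCB1, a core subunit that contacts the nucleosome, stood at 183 (105 to 264), and its widest gap was between libraries of 1 group: 4355 and 1734 scaled reads in BRM-wt. Per kb of the longest transcript SMARCB1 stood at 581, above ARID2 at 501 and BRD7 at 490.

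Of the other remodellers, 3 ISWI genes and CHD4 were highest. BAZ1B, a partner of the ISWI ATPase SMARCA5, stood at 2112 (1814 to 2432) scaled reads per kb, the ISWI ATPase SMARCA1 at 1928 (1567 to 2354) and SMARCA5 at 1784 (1466 to 2336). CHD4, the ATPase of the NuRD complex, stood at 1539 (1439.6 to 1598). The ISWI genes BAZ1A and BPTF stood lower, at 721 (581 to 936) and 472 (395 to 604). Per kb of the longest transcript, CHD4 stood at 2933, above BAZ1B at 2438. Neighbouring ranges overlapped, and these 4 genes shared the top of the order with SMARCC1 and ACTL6A.

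BAZ1B had scaled reads of 15329 and 14592 in control, 14393 and 14116 in BRG1-wt, 14014 and 12808 in BRG1-mut, 13324 and 17168 in BRM-wt and 16934 and 14760.4 in BRM-mut. SMARCA1 had 9189 and 7546 in control, 7614 and 8544 in BRG1-wt, 7737 and 6835 in BRG1-mut, 7728 and 9682 in BRM-wt and 10269.8 and 8174 in BRM-mut. SMARCA5 had 15119 and 12975 in control, 14394 and 14575 in BRG1-wt, 12734 and 11939 in BRG1-mut, 12247 and 19025 in BRM-wt and 16816 and 14220.4 in BRM-mut. Both BRG1-mut libraries lay below both control libraries in BAZ1B and SMARCA5, and overlapped them in SMARCA1. The widest gap within a group was in BRM-wt for BAZ1B and SMARCA5 and in BRM-mut for SMARCA1.

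The lowest of the other remodellers were SMARCAL1, an enzyme that acts at stalled replication forks, EP400, which takes part in exchange of histone H2A.Z, and INO80. SMARCAL1 stood at 99.2 (79.6 to 114) scaled reads per kb, EP400 at 134 (116 to 165) and INO80 at 156 (133 to 170.5). Per kb of the longest transcript the lowest were EP400 at 196, CHD7 at 305 and SMARCAL1 at 324, with INO80 at 436. SMARCAL1 had scaled reads of 1105 and 1251 in control, 1324 and 1167 in BRG1-wt, 1242 and 1373 in BRG1-mut, 1351 and 996 in BRM-wt and 961 and 1196 in BRM-mut. EP400 had 2290.1 and 2578 in control, 2568 and 2200.0 in BRG1-wt, 2804 and 2968 in BRG1-mut, 2595 and 2092 in BRM-wt and 2301 and 2474 in BRM-mut. INO80 had 3039.6 and 2698 in control, 2592 and 2657 in BRG1-wt, 2742 and 2373 in BRG1-mut, 2745 and 2666 in BRM-wt and 2871 and 2699 in BRM-mut. Both BRG1-mut libraries of EP400 lay above both control libraries, whereas those of SMARCAL1 and INO80 overlapped control. Of the 46 members, 29 share exon bases with another annotated gene, and SRCAP, CHD4, BRD7 and SMARCD3 share over 20% of their exon bases. Their counts may be affected there, but how reads in shared bases were handled is not known. The overlap is that of the annotation used here, which may differ from the one the authors counted on.

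None of the 45 tested members passed the test against control in any ATPase group. The fit was limma on log2(scaled reads + 1) over all genes and 5 groups, with Benjamini-Hochberg adjustment over 16512 genes and an adjusted p of 0.05 as threshold. Over all genes the calls were 0.26% in BRG1-wt, 0% in BRG1-mut, 0.291% in BRM-wt and 0.00606% in BRM-mut, so at these rates under 1 call would fall among 45 genes. At an unadjusted p under 0.05, 1 member passed in BRG1-wt, 0 in BRG1-mut, 1 in BRM-wt and 0 in BRM-mut, beside 4.14%, 1.43%, 4.12% and 0.563% of all genes. Voom weights in place of the intensity trend called 0 members as well. The test could miss large changes in BRG1-mut. There SMARCA4, the transfected gene, had a log2 fold change of 4.13 but an adjusted p of 0.716 in the same limma fit. The lack of member calls in BRG1-mut therefore does not show that the members were unchanged.

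The direct comparisons between ATPase groups likewise called 0 members. The background over all genes was 0.109% for BRG1-wt against BRG1-mut, 0.266% for BRM-wt against BRM-mut, 0.00606% for BRG1-wt against BRM-wt and 0.00606% for BRG1-mut against BRM-mut. Unadjusted p fell under 0.05 for 0, 1, 0 and 2 members in that order, beside 3.8%, 4.46%, 0.478% and 6.32% of all genes, so these counts do not stand out. The members were BICRAL in the second comparison, with a log2 fold change of -0.41 (SE 0.13, 95% interval -0.71 to -0.11), and BICRA and SMARCAD1 in the last, with 1.15 (SE 0.44, 95% interval 0.12 to 2.18) and -0.36 (SE 0.15, 95% interval -0.70 to -0.01). BICRAL and SMARCAD1 are named here after their values were seen.

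The intervals show how uncertain each estimate was. They are given per gene without adjustment over genes, so they are not the size of difference that the test would have called. Against control, the half-width of a member's 95% interval was 0.36 on the log2 scale at the median, from 0.19 for CHD4 to 1.47 for ACTL6B. An interval lying wholly within 1 log2 unit either way was found for 38 of 45 members in BRG1-wt, 37 in BRG1-mut, 39 in BRM-wt and 39 in BRM-mut. For the other members, and for smaller differences, the 2 libraries a group left the change undetermined.

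**Figure D2:**
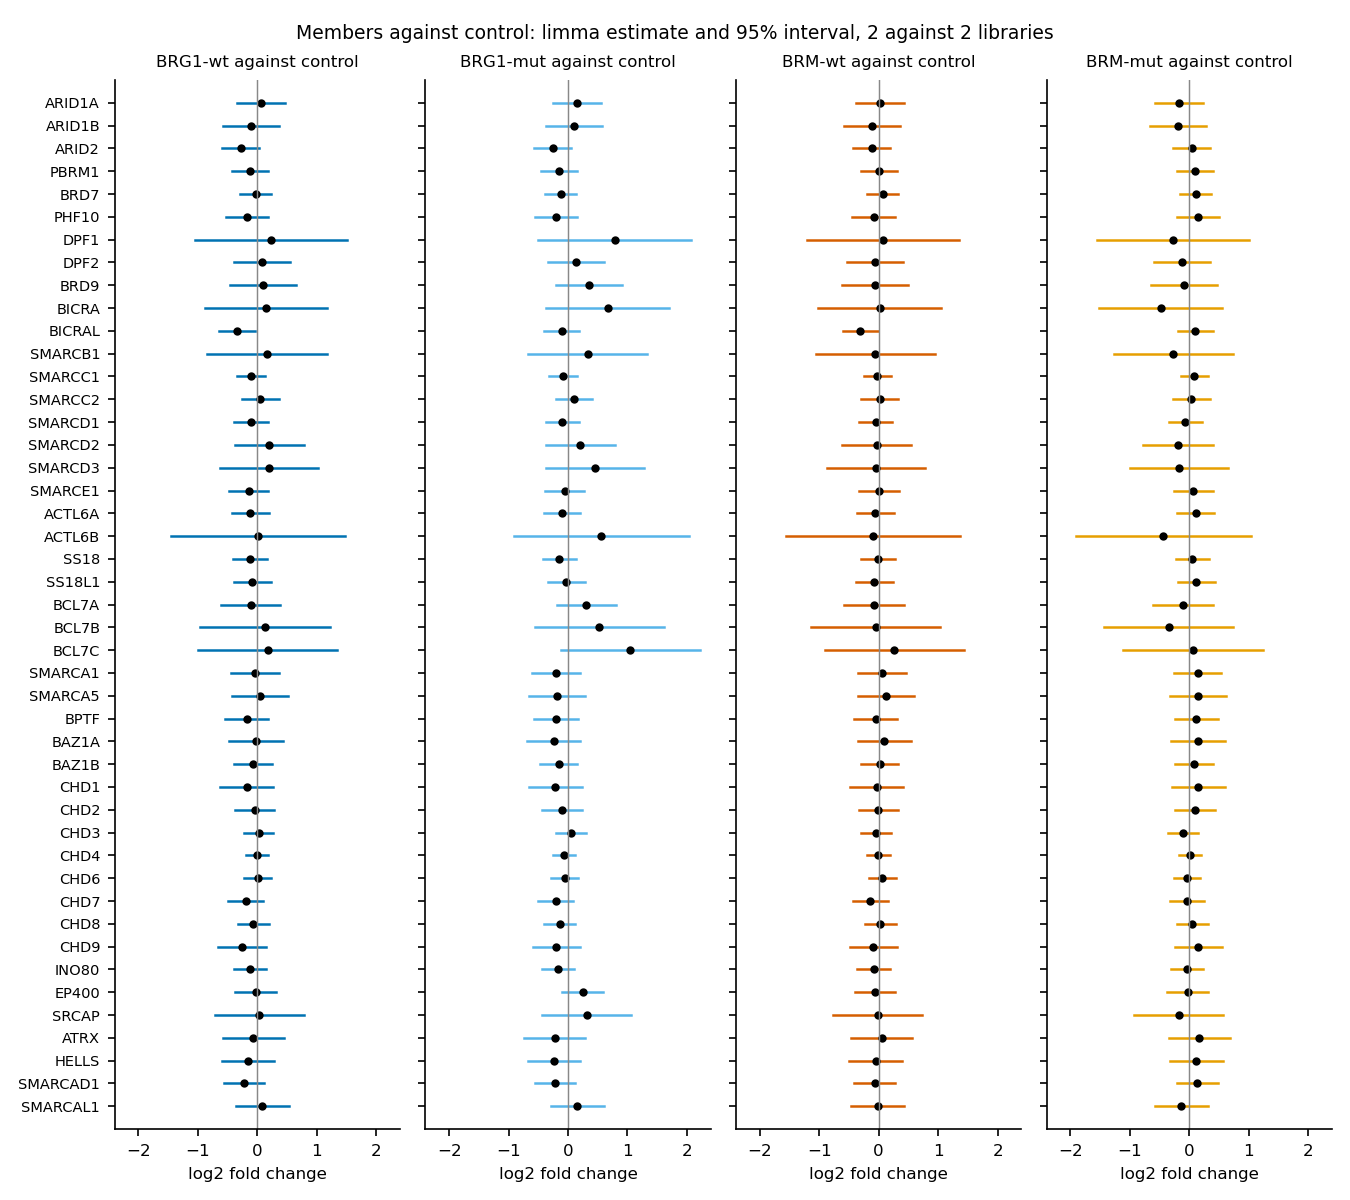
Log2 fold change of 45 members against control in the 4 ATPase groups; points are limma estimates, lines their 95% intervals, with 2 libraries a group. In BRG1-mut the points spread most, up to 1.05 for BCL7C, and the intervals of BCL7C, DPF1, BICRA and ACTL6B are wide.

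The median log2 fold change of the members was -0.05 in BRG1-wt, -0.09 in BRG1-mut, -0.03 in BRM-wt and 0.04 in BRM-mut, beside medians near 0 over all genes (0.01, -0.01, -0.02 and -0.02). The 4 comparisons share the control libraries. Members ranged from -0.34 to 0.23 in BRG1-wt, from -0.26 to 1.05 in BRG1-mut, from -0.31 to 0.26 in BRM-wt and from -0.48 to 0.17 in BRM-mut. BRG1-mut thus held the widest range. The medians depend on single libraries: that of BRM-wt turned to 0.02 without its shallower library and that of BRM-mut was 0.003 without its shallower library. That of BRG1-mut was -0.04 without the shallower control library and -0.01 with the GC trend subtracted.

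In BRG1-mut the families lay on different sides of 0. All 5 ISWI genes had estimates below 0, with a median log2 fold change of -0.20, and 7 of 8 CHD genes were below 0 with a median of -0.12. Of the 14 shared core subunits, 8 were above 0, with a median of 0.15 and a range of -0.15 to 1.05. Of 11 defining subunits 6 were above 0, with a median of 0.10, and of the 3 INO80-family ATPases 2 were, with a median of 0.25. Of the 4 other SNF2-type genes 3 were below 0, with a median of -0.22. In BRM-mut the ISWI genes lay the other way, 5 of 5 above 0 with a median of 0.14. In BRM-wt the ISWI median was 0.05 and in BRG1-wt -0.05. These estimates are descriptions, and 0 of them passed the test. The ISWI genes have an exonic GC content of 37.8% to 47.7% and the shared core 38.2% to 59.6%. With the GC trend over all genes subtracted, the medians in BRG1-mut were -0.07 for ISWI, -0.03 for CHD, 0.02 for the shared core, -0.004 for the defining subunits, -0.08 for the INO80 family and -0.02 for the other SNF2-type genes, and the ISWI median in BRM-mut was 0.05.

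The highest estimates against control were those of BCL7C, DPF1 and BICRA in BRG1-mut, and none of them passed the test. Their exonic GC content was 58.3%, 60.8% and 64.2%, all above the member median of 45.9%. BCL7C, a BCL7-family core subunit (chr16:30844947-30905623, minus strand), had scaled reads of 409.5 and 587 in control, 630.0 and 488 in BRG1-wt, 856 and 1206 in BRG1-mut, 996 and 349 in BRM-wt and 392 and 669.7 in BRM-mut. Both BRG1-mut libraries lay above both control libraries, but the 2 BRM-wt libraries stood on either side of control. Its log2 fold change in BRG1-mut was 1.05 (SE 0.50, 95% interval -0.12 to 2.22), with an adjusted p of 0.716 by limma.

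DPF1, a PHD-finger subunit of cBAF, had scaled reads of 163 and 247 in control, 269.5 and 205 in BRG1-wt, 315 and 380.0 in BRG1-mut, 366 and 122 in BRM-wt and 116 and 238 in BRM-mut. Its log2 fold change in BRG1-mut was 0.78 (SE 0.55, 95% interval -0.50 to 2.06). BICRA, whose reads are given above, had 0.67 (SE 0.44, 95% interval -0.36 to 1.70). In both genes each BRG1-mut library exceeded each control library, and again the BRM-wt libraries spanned control.

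BCL7B had scaled reads of 731 and 959 in control, 913 and 917 in BRG1-wt, 1161 and 1249 in BRG1-mut, 1361 and 479 in BRM-wt and 500.1 and 866 in BRM-mut. The log2 fold change in BRG1-mut was 0.52 (SE 0.47, 95% interval -0.56 to 1.61). SMARCD3, the third SMARCD paralogue, had 1427 and 1821 in control, 1898 and 1785 in BRG1-wt, 2069.8 and 2369 in BRG1-mut, 2331 and 1052 in BRM-wt and 1212 and 1688 in BRM-mut. The same value for SMARCD3 was 0.46 (SE 0.35, 95% interval -0.36 to 1.28). For BCL7B the gap between the BRM-wt libraries was wider than that between BRG1-mut and control.

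BICRAL was the only member with an unadjusted p under 0.05 against control, and it was so in BRG1-wt and BRM-wt. It had scaled reads of 2248 and 2126 in control, 1643 and 1809.5 in BRG1-wt, 2169 and 1905 in BRG1-mut, 1792 and 1732 in BRM-wt and 2508 and 2183 in BRM-mut. Both libraries of BRG1-wt and both of BRM-wt lay below both control libraries. BICRAL belongs to ncBAF. The log2 fold change was -0.34 (SE 0.13, 95% interval -0.64 to -0.05) in BRG1-wt and -0.31 (SE 0.13, 95% interval -0.61 to -0.01) in BRM-wt, with adjusted p of 0.912 and 1.00 by limma. It did not pass the test. These 2 comparisons share the control libraries.

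**Figure D3:**
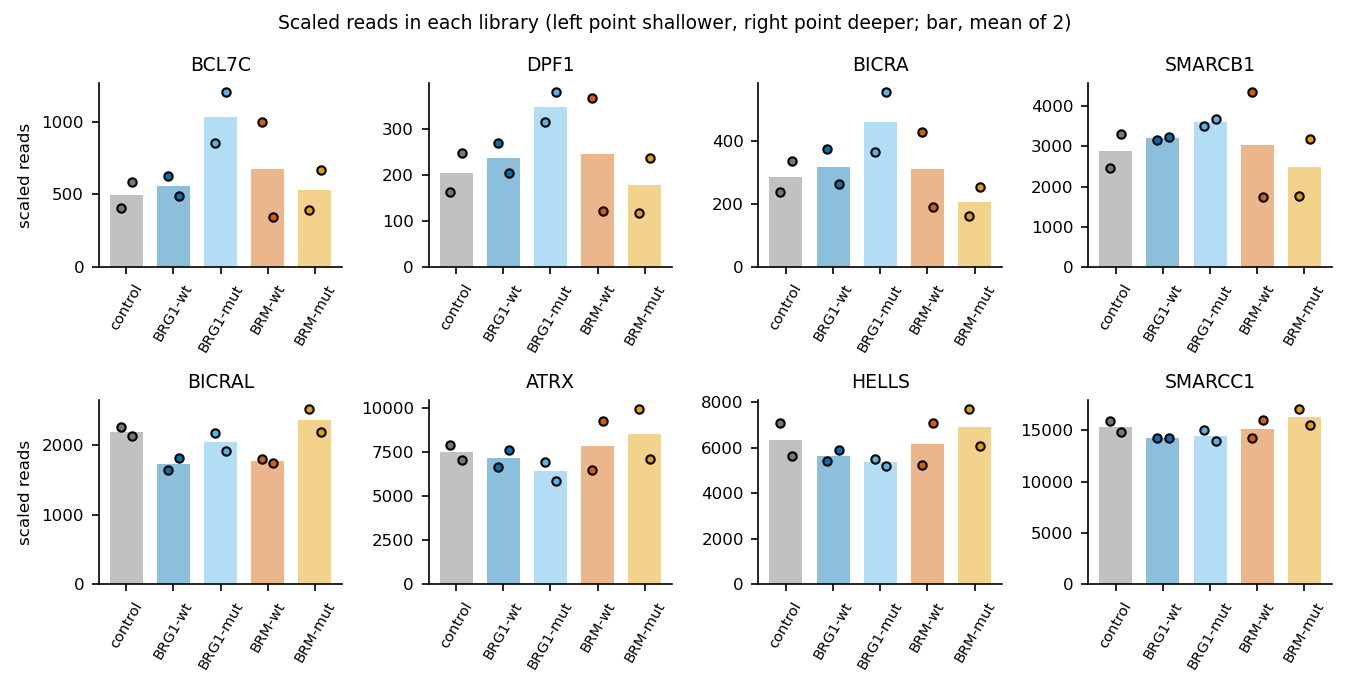
Scaled reads of 8 members in each library; the left point of a group is its shallower and the right its deeper library, and the bar is their mean. BCL7C, DPF1 and BICRA have their highest mean in BRG1-mut yet differ most between the BRM-wt libraries, while SMARCC1 stays between 13893 and 17044.

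Groups whose libraries did not overlap control were counted next. In BRG1-wt, 0 members had both libraries above both control libraries, beside 17.5% of all tested genes, and 15 of 45 (33.3%) had both below, beside 20%. The 15 included ARID2, PBRM1, PHF10, BICRAL, BCL7A, SMARCC1, SS18 and SS18L1 of SWI/SNF. In BRG1-mut, 14 members (31.1%) lay above, beside 30.8%, and 18 (40%) below, beside 26.4%. In BRM-wt, 0 lay above, beside 9.43%, and BICRAL and CHD7 (4.44%) below, beside 9.18%. In BRM-mut, BAZ1A, SS18 and SS18L1 (6.67%) lay above, beside 10.4%, and ARID1A and CHD3 (4.44%) below, beside 8.96%.

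The spread between libraries of 1 group followed the GC content of the genes. Exonic GC content ran from 34.9% in ATRX to 64.2% in BICRA among the tested members, with a median of 45.9%, beside 47.3% over all genes. Between the 2 control libraries, the log2 difference (deeper against shallower) rose with GC content across the 45 members, with a Spearman rho of 0.82, and of 0.61 across 16028 genes. The rho over members was -0.62 in BRG1-wt, 0.72 in BRG1-mut, -0.87 in BRM-wt and 0.88 in BRM-mut. Genes share libraries and size factors and are not independent replicates, so these are descriptions.

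BRM-wt showed the widest gap. There the third of members with the highest GC content had a median log2 difference of -1.03 between the deeper and the shallower library, and the third with the lowest had 0.40. In control these medians were 0.38 and -0.14, and in BRM-mut 0.41 and -0.23. HELLS, a low-GC SNF2-type gene involved in DNA methylation, had scaled reads of 7084 and 5629.6 in control, 5414 and 5889 in BRG1-wt, 5511 and 5212 in BRG1-mut, 5233 and 7077 in BRM-wt and 7711 and 6097 in BRM-mut. ATRX, which acts in deposition of histone H3.3, had 7910.1 and 7069 in control, 6656 and 7624 in BRG1-wt, 6946 and 5887 in BRG1-mut, 6465 and 9259.5 in BRM-wt and 9940.5 and 7105 in BRM-mut. Both AT-rich genes were thus higher in the BRM-wt library in which SMARCB1 and BCL7C were lower.

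The differences from control followed GC content too. Across the 45 members, the Spearman rho of log2 fold change with GC content was 0.73 in BRG1-wt, 0.88 in BRG1-mut, 0.03 in BRM-wt and -0.81 in BRM-mut, beside 0.51, 0.74, 0.04 and -0.62 across 16028 genes. With the GC trend over all genes subtracted, the log2 fold change in BRG1-mut became 0.48 for BCL7C, 0.22 for BCL7B, 0.06 for BRD9, -0.05 for SMARCD3, -0.08 for DPF1 and -0.60 for BICRA. The BRG1-wt value of BICRAL became -0.27. Whether the GC trend arose in the libraries or in the cells was not tested.

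**Figure D4:**
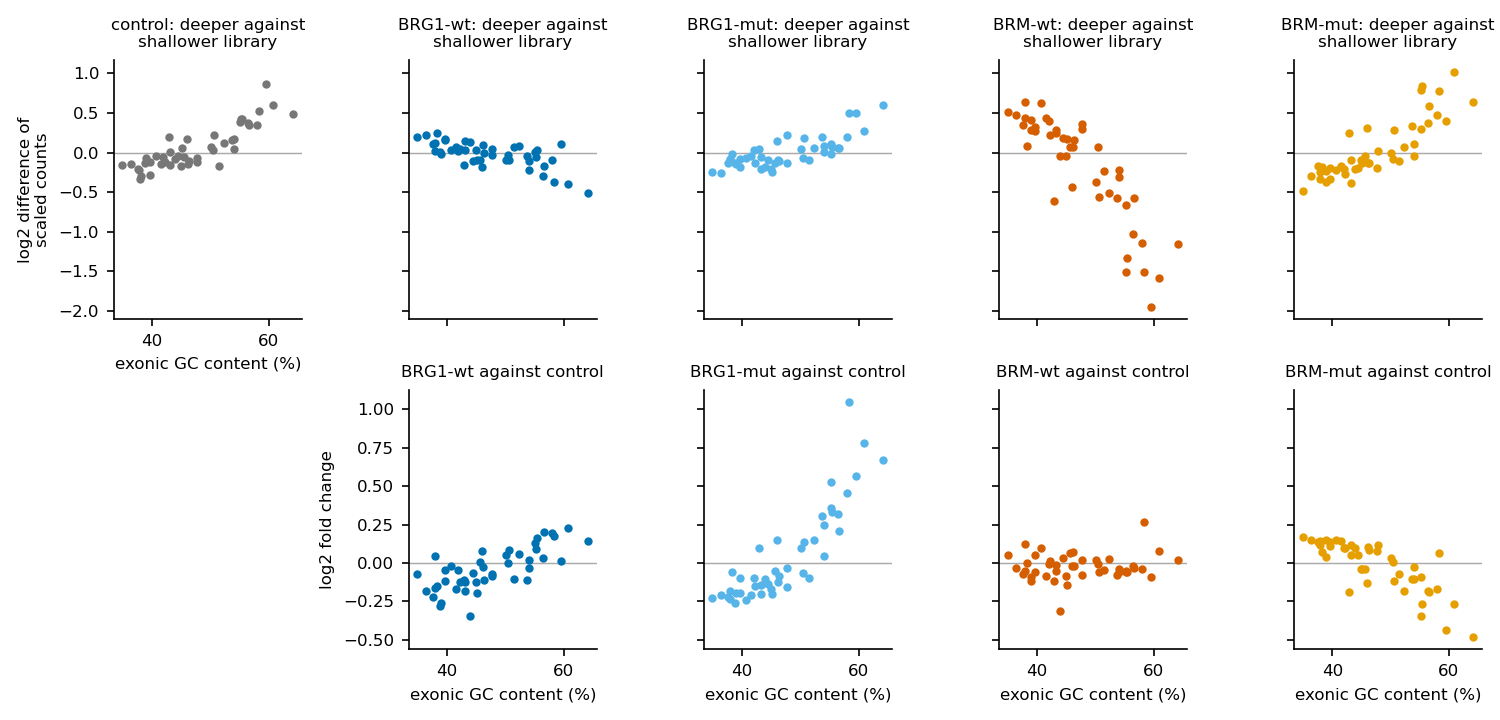
Log2 difference of 45 members against their exonic GC content (%); upper row, deeper against shallower library of each group, and lower row, each ATPase group against control. The slopes of the upper row differ in sign between groups, with rho of -0.87 in BRM-wt and 0.88 in BRM-mut, and the lower row rises in BRG1-mut (0.88) and falls in BRM-mut (-0.81).

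The base means of the 4 tables were compared as deposited means, each over 2 ATPase and the 2 control libraries, which pulls ratios toward 1. After scaling by the median ratio, 44 members (all but ACTL6B and DPF3) had a base mean of at least 100 in every table. For BRG1-wt against BRG1-mut, 1 of them (BCL7C) was past a log2 ratio of 0.32 either way, beside 10% of 11646 genes, with a log2 ratio of -0.53. None was past it for BRM-wt against BRM-mut, beside 8.91%, or for BRG1-wt against BRM-wt, beside 0.215%. For BRG1-mut against BRM-mut 5 were, all higher in BRG1-mut, beside 20.5% of all genes. These were BICRA (log2 ratio 0.62), BCL7C (0.59), DPF1 (0.55), BCL7B (0.44) and SMARCD3 (0.34). With the GC trend subtracted, the count was 0. Apart from BRG1-wt against BRM-wt, where nearly no gene was past the fold, the share of members past it lay below that of all genes. From the means of the recovered libraries, which hold no control, 22 of 45 members were past it in BRG1-mut against BRM-mut. This share was near the 48.3% of all genes.

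A further list held 51 genes of other remodeller subunits and of other SNF2-type or CHD enzymes such as HLTF and CHD5, all matched and tested. None passed the limma test in any of the 8 comparisons. At an unadjusted p under 0.05, 1 did in BRG1-wt against control, 4 in BRG1-mut against BRM-mut and 0 in the other 6. Over all genes the shares were 4.14% and 6.32% in the first 2 of these. By base means, 0 were past 1.5-fold for BRG1-wt against BRG1-mut, BRM-wt against BRM-mut and BRG1-wt against BRM-wt, beside 2.81%, 2.28% and 0.0343% of all genes. For BRG1-mut against BRM-mut 8 were past 1.5-fold, all higher in BRG1-mut, beside 10% of all genes. Their log2 ratios were 1.03 for RUVBL2, an ATPase shared by INO80-type complexes, 0.98 for TFPT and 0.61 for INO80E of the INO80 complex, 0.93 for MTA1, 0.65 for GATAD2A and 0.60 for MBD3 of NuRD, 0.73 for ZNHIT1 and 0.64 for CHD5. The exonic GC content of these 8 genes ran from 53.1% to 64.8%, beside 47.3% at the median of all genes.

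Exon inclusion was read from the 8 splicing tables, in which 1 ATPase library is set against the equally numbered control library. PSI is the share of transcripts that contain the exon among the forms that join its listed flanking exons with or without it. It was estimated by the authors' MISO run, and 1 exon can have more than 1 PSI in a library if its flanking exons differ. The tables list only events that passed the authors' threshold, 396 to 977 a table, and give no read numbers, so the depth behind a PSI is unknown and exons not listed cannot be compared. Placed on the GENCODE annotation of GRCh37, 34 listed entries fell in 18 exons of 11 members, 9 of them SWI/SNF subunits. The other 35 members had no listed exon. Of the 18 exons, 8 were listed in 1 table only and 11 had a length that is a multiple of 3. Of these, 9 lay in coding sequence, where such a length keeps the reading frame, and 2 (of BRD9) had no coding part.

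The exons below are those of SWI/SNF subunits that lay wholly in coding sequence and were listed in 2 or more tables, with PBRM1 exon 28 added as the neighbour of exon 29. They are shown so that the sequence behind each PSI can be seen. Each is written 5′ to 3′ on the gene's strand, from GRCh37, with the exon in capitals, the 20 intron bases before it and the 8 after it in lower case.
PBRM1 exon 29 of 32 (chr3:52588740-52588895, minus strand, 156 bp, 66.0% GC): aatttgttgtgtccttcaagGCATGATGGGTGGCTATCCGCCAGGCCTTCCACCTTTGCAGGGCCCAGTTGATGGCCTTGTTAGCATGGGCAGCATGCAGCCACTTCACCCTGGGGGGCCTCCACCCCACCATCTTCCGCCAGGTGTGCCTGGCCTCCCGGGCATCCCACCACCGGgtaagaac
PBRM1 exon 28 of 32 (chr3:52592265-52592429, minus strand, 165 bp, 61.2% GC): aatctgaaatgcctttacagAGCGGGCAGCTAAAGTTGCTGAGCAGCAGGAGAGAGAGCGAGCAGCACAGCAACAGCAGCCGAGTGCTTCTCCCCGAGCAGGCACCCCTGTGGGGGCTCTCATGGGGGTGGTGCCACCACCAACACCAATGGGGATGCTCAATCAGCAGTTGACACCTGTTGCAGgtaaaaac
BRD9 exon 8 of 16 (chr5:884053-884185, minus strand, 133 bp, 62.4% GC): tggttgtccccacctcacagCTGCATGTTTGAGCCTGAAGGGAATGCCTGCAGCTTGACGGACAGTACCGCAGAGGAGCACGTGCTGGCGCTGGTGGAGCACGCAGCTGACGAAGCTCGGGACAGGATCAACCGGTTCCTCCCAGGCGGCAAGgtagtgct
SMARCC2 alternative exon (chr12:56558087-56558152, minus strand, 66 bp, 65.2% GC): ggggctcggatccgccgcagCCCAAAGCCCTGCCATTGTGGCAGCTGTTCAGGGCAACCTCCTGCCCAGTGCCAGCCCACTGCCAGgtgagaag
DPF2 alternative exon (chr11:65112051-65112092, plus strand, 42 bp, 45.2% GC): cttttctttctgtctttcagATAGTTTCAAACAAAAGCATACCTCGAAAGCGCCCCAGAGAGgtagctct
BCL7B exon 3 of 6 (chr7:72957878-72957974, minus strand, 97 bp, 45.4% GC): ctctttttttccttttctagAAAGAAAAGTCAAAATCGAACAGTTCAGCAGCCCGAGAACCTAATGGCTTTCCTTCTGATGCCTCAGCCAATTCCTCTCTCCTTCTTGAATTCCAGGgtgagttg
SS18 exon 8 of 11 (chr18:23615795-23615887, minus strand, 93 bp, 44.1% GC): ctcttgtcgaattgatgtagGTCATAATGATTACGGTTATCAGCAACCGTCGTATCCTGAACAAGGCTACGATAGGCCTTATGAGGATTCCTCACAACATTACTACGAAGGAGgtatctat

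All 7 exons were preceded by ag and followed by gt. The numbered exons belong to the gene's canonical transcript in the annotation, and the alternative exons to other annotated transcripts.

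PBRM1 exon 29 was listed in 6 of the 8 tables, more than any other member exon. All of these entries had flanking exons that leave out the neighbouring exon 28, so this PSI compares forms without exon 28. The PSI was 0.18 in replicate 1 and 0.54 in replicate 2 of control. In replicate 1 it was 0.40 in BRG1-wt, 0.43 in BRG1-mut and 0.49 in BRM-wt, all above control. In replicate 2 BRG1-wt had 0.30, BRM-wt 0.15 and BRM-mut 0.19, all below control. The same exon thus lay above control in replicate 1 and below it in replicate 2 of BRG1-wt and of BRM-wt. The gap between the control replicates was larger than 5 of the 6 differences from control.

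The neighbouring exon 28 of PBRM1 was listed once, with a PSI of 0.24 in control and 0.44 in BRM-wt of replicate 1. Its flanking exons were the same as those listed for exon 29, so its PSI compares forms without exon 29. Another PBRM1 exon, of 142 bp with no coding part, was listed once too, at 0.40 in control and 0.78 in BRG1-wt of replicate 2. Exons 28 and 29 both have lengths that are multiples of 3.

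BRD9 exon 8 was listed in 3 tables, all of replicate 1. Its PSI was 0.78 in control, 0.96 in BRG1-wt, 0.97 in BRG1-mut and 0.95 in BRM-mut. The 3 ATPase libraries were compared with the same control library, and replicate 2 listed the exon in no table. Its length of 133 bp is not a multiple of 3. At the 3′ side of BRD9, an exon of 513 bp had a PSI of 0.26 in control against 0.87 in BRG1-wt of replicate 1, and of 0.26 against 0.79 in BRM-wt of replicate 2. The form of 198 bp that shares its 3′ end had 0.35 in control and 0.88 in BRG1-wt of replicate 1.

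In the core subunits, the SMARCC2 exon of 66 bp had a PSI of 0.12 in control and 0.40 in BRG1-mut of replicate 2, and of 0.05 and 0.29 in BRM-wt of replicate 1. Exon 8 of SS18 stood at 0.24 in control and 0.14 in BRG1-wt of replicate 2, and at 0.14 in control and 0.24 in BRM-mut of replicate 1. These SS18 values were the same pair in reverse, so the difference between the control replicates matched the difference from control. Further SS18 exons were listed in BRM-wt and BRM-mut, each with more than one set of flanking exons. The exon of 136 bp had 0.78 in control and 0.22 in BRM-wt, and with another upstream exon 0.23 and 0.02 in BRM-mut, both in replicate 2. The exon of 124 bp had 0.06 and 0.57, and with another downstream exon 0.01 and 0.06, in BRM-mut of replicate 1. SMARCD3 exon 2, at 81.6% GC the richest of the 18, had 0.14 in control and 0.85 in BRG1-mut of replicate 2. Exon 5 of SMARCD1 had 0.89 and 0.80 in BRM-wt of replicate 1.

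The 2 BCL7B exons went opposite ways. Exon 3 had a PSI of 0.98 in control, 0.88 in BRG1-wt and 0.86 in BRG1-mut, and the exon of 305 bp had 0.10 in control, 0.23 in BRG1-mut and 0.30 in BRM-wt, all in replicate 1. Of the defining subunits, DPF2 had 0.08 in control and 0.03 in both BRG1-mut and BRM-wt of replicate 1, and ARID1B exon 11 had 0.65 and 0.90 in BRM-wt of replicate 2. Outside SWI/SNF, the BPTF exon of 189 bp had 0.83 in control, 0.61 in BRG1-wt and 0.64 in BRM-mut, all in replicate 2. The EP400 exon of 111 bp had 0.75 and 0.25 in BRG1-wt of replicate 2.

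**Figure D5:**
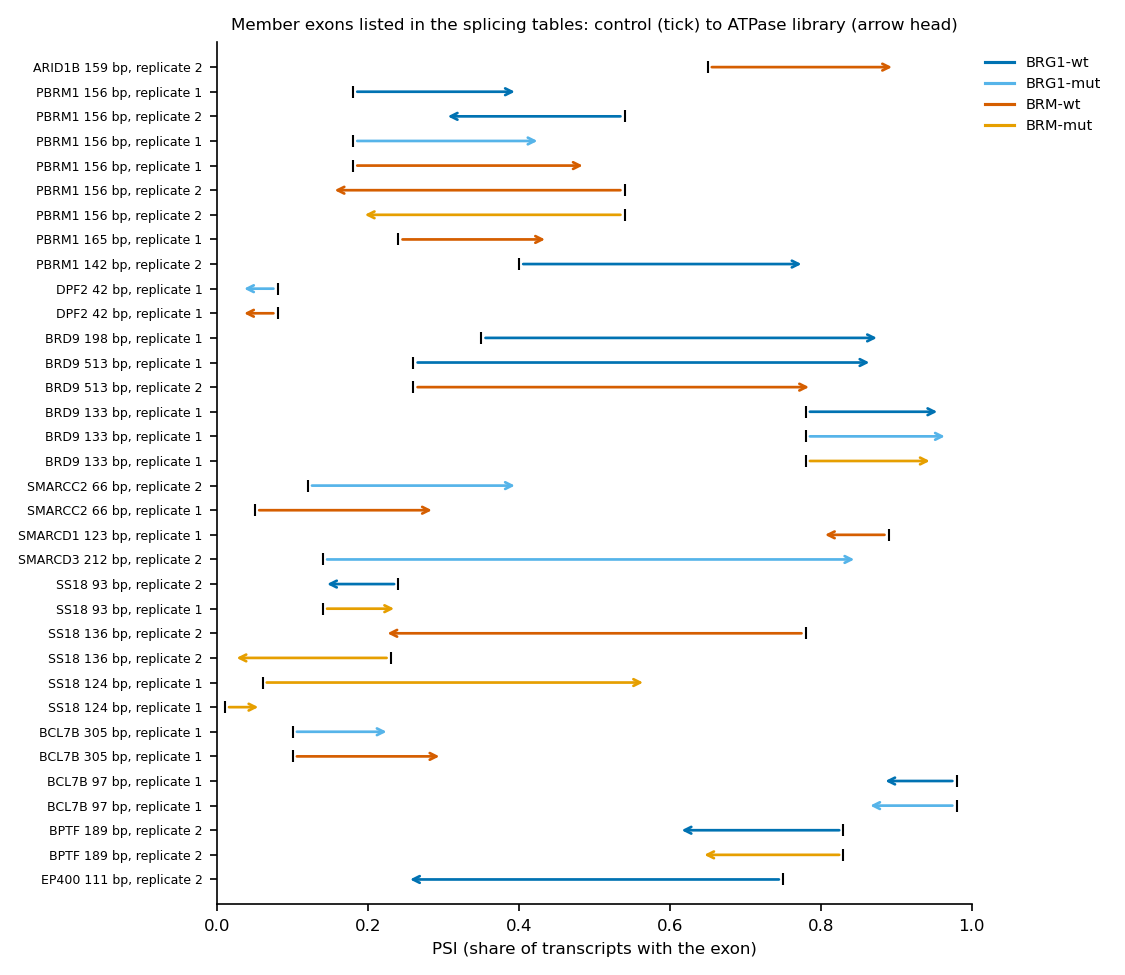
PSI (0 to 1) of the 34 listed entries of member exons; the black tick is the control library, the arrow head the ATPase library of the same replicate, and the colour the ATPase group. The arrows of the PBRM1 exon of 156 bp point right in replicate 1 and left in replicate 2.

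Counting each exon once a table, the members had 10 listed exons in BRG1-wt, 7 in BRG1-mut, 10 in BRM-wt and 6 in BRM-mut. PSI was higher than in control for 4 of 5 in replicate 1 and 1 of 5 in replicate 2 of BRG1-wt, beside 55.5% and 56.2% of all listed exons. In BRG1-mut it was higher for 3 of 5 and 2 of 2, beside 57.9% and 58.5%. In BRM-wt it was higher for 4 of 6 and 2 of 4, beside 60.2% and 43%. In BRM-mut it was higher for 3 of 3 and 0 of 3, beside 49.1% and 49.3%. Of exons listed in both replicates of a group, the members had 2 (PBRM1 exon 29 in BRG1-wt and in BRM-wt), of which 0 kept 1 direction. Over all listed exons, 205 of 532 did (38.5%). With 2 replicates a group and values from a list already selected on the same contrast, no test of these differences was made.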

How the data were processed

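RNA of 10 C33A libraries was sequenced. Per the labels and the study's methods, the authors mapped reads to GRCh37 with TopHat2 2.0.4, counted them per gene with HTSeq 0.6.1 with duplicates kept, and ran DESeq2 for each ATPase group against control. The deposited signal used here is the base mean of each of 4 tables, the mean over 4 libraries of counts divided by size factors. The strand setting of the counting is not given in the sources used here. The deposited fraction is PSI, estimated by MISO for a control and an ATPase library of the same replicate number, and only events past a Bayes factor set by the authors are listed. The tables' fold changes, test statistics, p-values, Bayes factors and PSI changes are the authors' own comparisons and were not used. A further table was a copy of one of the 4 and was not used.

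Base mean ratios and levels per kb were taken as planned. The planned design took the tables to hold pooled values only. After the data were seen, it was found that every base mean is a sum of 4 steps, each taken a whole number of times, so the whole reads of each library were solved for 99.98% of genes with reads, and 5 genes were left out. A pair of steps had the same whole numbers in all 4 tables and was taken as control, the only group in every table. The group of a library therefore rests on the table's name and on this identity, and its replicate number is unknown. The recovered counts were tested with limma 3.58.1 in R 4.3.3 on log2(scaled reads + 1), with an intensity trend, for genes with a mean of at least 10 scaled reads, in 1 fit of 5 groups. This was an added analysis, and the scripts were tested on simulated data. The trend with exonic GC content was subtracted in 50 bins as an alternative. Exons were placed on the GRCh37 annotation by exact coordinates, and sequences were read from GRCh37 with pysam 0.24.0.

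All members are described by level. A marker gene is not reported here. Named with every value are those past a log2 ratio of 0.32 between base means, the 3 highest and 3 lowest per kb in SWI/SNF and in the other remodellers, and those with an exon listed in both replicates or in 3 or more tables. Of the pathway list, genes past a ratio of 1.5 are named with that ratio. SMARCB1, BICRAL, SMARCAD1, HELLS, ATRX and the remaining exons were named after their values were seen. The members and lists were chosen with earlier results of these data known.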

Additional observations from a re-analysis of the deposited data

Results flagged for a closer look

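The PBRM1 exon of 156 bp stood out because its PSI moved in opposite directions in 2 ATPase groups, by 0.25 in BRG1-mut (replicate 1) and by -0.35 in BRM-mut (replicate 2). The SS18 exon of 93 bp did the same, by 0.10 in BRM-mut (replicate 1) and by -0.10 in BRG1-wt (replicate 2). In each case every listed library of a group moved one way, but only 1 library a group was listed, and the difference between groups was not tested. In both exons the direction went with the replicate number, and group and replicate cannot be told apart for these entries. The PBRM1 exon was also listed in both replicates of BRG1-wt (0.22 and -0.24) and of BRM-wt (0.31 and -0.39). Within each of these groups its direction changed with the replicate.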

How the results depend on the processing

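Calls by limma stayed at 0 members in all 8 comparisons under 17 alternatives: other pseudocounts, filters and scaling, the GC trend subtracted, voom weights and leave-one-out. Over all genes, leaving out a library moved the calls to 0 to 95 for BRG1-wt against control, 6 to 87 for BRM-wt against control, 0 to 69 for BRG1-wt against BRG1-mut and 0 to 72 for BRM-wt against BRM-mut, from 43, 48, 18 and 44. Voom weights gave 28, 40, 17 and 34, and subtracting the GC trend gave 181, 184, 115 and 167. Subtracting the GC trend turned the log2 fold change in BRG1-mut to -0.119 for ACTL6B, -0.600 for BICRA, -0.0822 for DPF1 and -0.0542 for SMARCD3. Without the shallower BRM-mut library, the log2 fold change of BCL7B in BRM-mut turned to 0.0486, and leaving out 1 library at a time moved it from -0.742 to 0.0486.

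Members past a log2 ratio of 0.32 by base means became 2 for BRG1-wt against BRG1-mut with no filter (31.4% of all genes) and 0 at a fold of 1.5 (2.81%). For BRG1-mut against BRM-mut they became 2 at a fold of 1.5 (10%) and 0 with the GC trend subtracted (5.21%). From the means of the recovered libraries, without the control libraries in them, they were 6, 6 and 22 for BRG1-wt against BRG1-mut, BRM-wt against BRM-mut and BRG1-mut against BRM-mut, beside 31.7%, 31.6% and 48.3% of all genes. At a PSI difference of at least 0.2, listed member exons fell to 3 in BRG1-mut and to 3 in BRM-mut. Leaving out a replicate gave 5 to 5 exons in BRG1-wt, 2 to 5 in BRG1-mut, 4 to 6 in BRM-wt and 3 to 3 in BRM-mut, with shares higher of 20% to 80%, 60% to 100%, 50% to 66.7% and 0% to 100%. The cause of these changes was not tested, beyond fewer exons being counted.

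No paired analysis was possible because the recovered counts carry no replicate number and the base means are pooled. Matching exons by a gene name was not run, since the splicing tables name no gene. With 2 libraries a group, differences within the intervals given were not detectable, and for PSI the depth is unknown.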

Other observations

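Of 51 further remodeller genes, RUVBL2 had the highest log2 fold change in BRG1-mut against control, 1.44, and the lowest in BRM-mut against control, -0.66. Neither passed the limma test. Its scaled reads were 1711 and 4462 in control, 4794 and 3657 in BRG1-wt, 6411 and 8796 in BRG1-mut, 7859 and 1004 in BRM-wt and 841 and 3640.4 in BRM-mut. The 2 libraries of a group lay furthest apart in BRM-wt, where they spanned both control libraries, and closest in BRG1-wt. The exonic GC content of RUVBL2 was 57.6%.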
